A study of Mus musculus with 12 samples.

Results

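The 10 genes described here are carboxylesterase genes of mouse liver, Ces1c, Ces1d, Ces1e, Ces1f, Ces1g, Ces2a, Ces2c, Ces2d-ps, Ces2e and Ces3a, chosen by symbol from a table of 24532 genes. Carboxylesterases are serine hydrolases that cut ester, amide and thioester bonds in drugs, environmental chemicals and the body's own lipids. Most of them reside in the lumen of the endoplasmic reticulum of hepatocytes, where some release fatty acids from stored triacylglycerol and others clear drugs and toxicants. The mouse holds many more of these genes than the human genome does, arranged as tandem copies.

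RNA-seq was done on the livers of male C57BL/6 mice aged 10 to 12 weeks at the start of a 5-week diet, with 3 mice in each of 4 groups. Ahr HKO mice carried Ahr fl/fl alleles and Alb-Cre, an albumin promoter-driven recombinase that removes exon 2 of Ahr in hepatocytes. WT mice were Ahr fl/fl littermates without Cre, so both genotypes carried the floxed alleles and the non-hepatocyte cells of the Ahr HKO liver retained the gene. Each genotype received a Lieber-DeCarli liquid diet with ethanol (EtOH, 5% of the volume and 36% of the calories) or an isocaloric control diet (con). Ahr encodes the aryl hydrocarbon receptor, a ligand-activated transcription factor that senses xenobiotics and tryptophan metabolites.

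Counts on genes ranged from 46306518 to 74336255 per liver. All 10 members passed the filter on low counts, as did 14038 genes in all. Expression is given as CPM, the count scaled to a fixed library size with TMM factors. A gene was called changed in a comparison when its adjusted p by the edgeR quasi-likelihood test was under 0.05 and its fold change (FC) was above 1.5. Ahr itself was at 16.6 to 20.1 CPM in WT-con livers and at 41.3 to 65.5 CPM in Ahr HKO-con livers. These counts cover all exons, so they do not test for the loss of exon 2. Cyp1a2, a target of the receptor, was at 398 to 617 CPM in WT-con livers and at 90.7 to 258 CPM in Ahr HKO-con livers. Cyp1a1, another target, was scarce and went the other way (edgeR adjusted p = 0.0453). It was at 0.204 to 0.349 CPM in WT-con livers and at 0.444 to 0.898 CPM in Ahr HKO-con livers. Receptor targets were thus not uniformly lower in Ahr HKO-con livers. All 6 hepatocyte markers of the fixed list were detected in every group. In whole liver, fewer cells of a type and less RNA per cell cannot be told apart.

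All carboxylesterase genes of the table lie on chromosome 8 in 2 runs (RefSeq, GRCm38.p6). The run from 93020214 to 93535879 holds 8 of them with the 5 Ces1 members, and the run from 104734003 to 105150109 holds 11 with the 4 Ces2 members and Ces3a. The table has no other gene inside either run. The stretches below are coding sequence (GENCODE transcripts of GRCm38, 5′ to 3′ on the gene's strand, each within an exon) around the codon of the catalytic serine, which is in capitals, and are shown because they carry the shared chemistry of the family and the closeness of its copies.
Ces1c (chr8:93123106-93123150, minus strand): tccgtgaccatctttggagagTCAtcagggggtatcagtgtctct
Ces1d (chr8:93187749-93187793, minus strand): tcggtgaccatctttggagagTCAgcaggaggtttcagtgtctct
Ces1e (chr8:93217505-93217549, minus strand): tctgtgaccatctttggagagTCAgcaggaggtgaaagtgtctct
Ces1f (chr8:93269980-93270024, minus strand): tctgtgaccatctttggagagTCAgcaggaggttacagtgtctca
Ces1g (chr8:93328384-93328428, minus strand): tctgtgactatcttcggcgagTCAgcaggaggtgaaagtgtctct
Ces2a (chr8:104737395-104737439, plus strand): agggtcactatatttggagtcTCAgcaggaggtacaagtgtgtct
Ces2c (chr8:104850753-104850797, plus strand): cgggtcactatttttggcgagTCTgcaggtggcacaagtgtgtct
Ces2d-ps (chr8:104870352-104870396, plus strand): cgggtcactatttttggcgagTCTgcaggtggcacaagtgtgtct
Ces2e (chr8:104929800-104929844, plus strand): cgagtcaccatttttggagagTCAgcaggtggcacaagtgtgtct
Ces3a (chr8:105051571-105051615, plus strand): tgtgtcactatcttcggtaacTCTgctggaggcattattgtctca
The stretches of Ces2c and the annotated pseudogene Ces2d-ps differed at 0 of 45 bases.

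The copies are close enough to share reads. Over their coding sequences (the whole transcript for Ces2d-ps), Ces2c and Ces2d-ps were 97.6% identical, Ces3a and its neighbour Ces3b 95.3%, and Ces1c and its neighbour Ces1b 91.1%. Of the 100-base windows of a transcript, as long as a read, 57.0% in Ces2d-ps, 16.0% in Ces2c, 10.7% in Ces2a, 9.09% in Ces3a and 1.39% in Ces1c occurred in a transcript of another gene, and none in the other 5 members. The Ces2d-ps windows were shared most with Gm8798, a pseudogene that is not in the table. How shared reads were assigned is not given in the sources used here, so single values of Ces2c, Ces2d-ps, Ces2a and Ces3a are less certain than those of the Ces1 members.

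Within the last 12 codons, the first of the last 4 separates Ces1c and Ces3a from the other coding members. In most carboxylesterases the last residues form a retrieval signal that holds the enzyme in the endoplasmic reticulum, whereas Ces1c is known as the carboxylesterase of mouse plasma. The last 4 codons before the stop are in capitals below.
Ces1c: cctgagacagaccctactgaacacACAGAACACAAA
Ces1d: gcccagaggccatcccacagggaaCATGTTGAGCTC
Ces1g: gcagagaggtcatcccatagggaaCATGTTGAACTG
Ces2c: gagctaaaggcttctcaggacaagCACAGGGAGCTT
Ces3a: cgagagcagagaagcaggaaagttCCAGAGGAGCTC
The capitals open with a histidine codon, CAT or CAC, in the 7 other coding members, and with another codon in Ces1c and Ces3a. Ces3a still ends in GAGCTC, as Ces1d does, whereas Ces1c ends in CACAAA. Where the Ces3a protein resides was not tested.

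Per length of transcript (FPKM), Ces1c and Ces3a made up most of the carboxylesterase mRNA. In WT-con livers Ces3a was at 1008 ± 133 FPKM and Ces1c at 938 ± 107 FPKM (SD, n = 3 here and below), and their values overlapped. Both were far above Ces1f at 133 ± 38.7 FPKM, Ces2a at 96.6 ± 35.3 FPKM, Ces1d at 92.1 ± 45.0 FPKM and Ces2e at 70.8 ± 17.2 FPKM, which overlapped with their neighbours in this order. Ces1e (38.6 ± 13.9 FPKM) and Ces1g (37.9 ± 15.5 FPKM) followed, and Ces2c (17.7 ± 5.59 FPKM) and Ces2d-ps (5.06 ± 4.58 FPKM) were lowest. By mean FPKM, Ces3a ranked 70 and Ces1c 78 among the 24532 genes of WT-con livers.

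The order differed between groups. In WT-EtOH livers Ces1c was first at 1555 ± 58.9 FPKM, apart from Ces3a at 415 ± 89.9 FPKM, followed by Ces1d at 282 ± 62.4 FPKM. Ces1c was also first in both Ahr HKO groups, at 831 ± 107 FPKM on the control diet and 921 ± 146 FPKM with ethanol, and in each its values were apart from those of Ces3a. Ces1c and Ces3a held 80.2% ± 3.51 of the summed FPKM of the 10 genes in WT-con, 67.6% ± 2.35 in WT-EtOH, 80.0% ± 3.86 in Ahr HKO-con and 66.1% ± 1.41 in Ahr HKO-EtOH livers. The share was lower in each of the 3 livers on ethanol than in any liver on the control diet, in both genotypes.

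**Figure D1:**
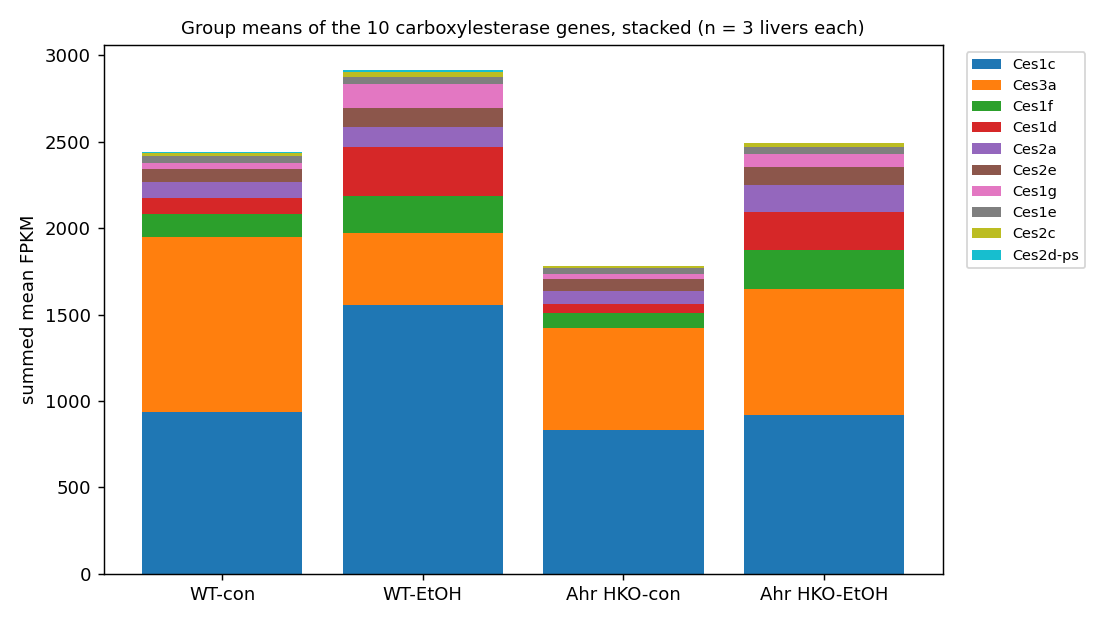
Mean FPKM of the 10 carboxylesterase genes stacked for each group (x axis: group, n = 3 livers each; y axis: summed mean FPKM). Ces1c and Ces3a form most of every bar, and the Ces3a segment is shortest in WT-EtOH, at 415 FPKM.

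Ethanol in WT mice moved the carboxylesterase genes in both directions. The comparison of WT-EtOH with WT-con livers addresses how alcohol changes the liver when the receptor is present. Ces1g and Ces1d rose, Ces3a fell, and the other members either stayed below the thresholds or changed by less than 1.5-fold. Thus 3 of 10 members were called (2 higher, 1 lower), against 6.76% of all genes tested, with 3.36% called higher and 3.4% called lower. The median log2 FC was 0.56 over the members and 0.03 over all genes.

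Ces1d encodes the triacylglycerol hydrolase that mobilizes stored fat for very low-density lipoprotein assembly. Its level was 298, 149.5 and 127 CPM in WT-con livers 1, 2 and 3 and 541, 602 and 418 CPM in WT-EtOH livers. All ethanol livers were above all control livers, and the log2 FC was 1.46 (SE 0.33, adjusted p = 0.0385). Ces1g encodes an esterase whose loss in mice is known to cause fatty liver and obesity. It was at 134, 72.7 and 68.1 CPM in WT-con livers and at 435, 276 and 206 CPM in WT-EtOH livers, again without overlap (log2 FC 1.75, SE 0.35, adjusted p = 0.0273).

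Both calls depended on single livers. Without WT-con liver 2 the adjusted p was 0.129 for Ces1d and 0.102 for Ces1g, and without WT-con liver 3 it was 0.10 and 0.0906. Without WT-EtOH liver 1 it was 0.0742 and 0.0516, and without WT-EtOH liver 2 it was 0.0915 and 0.0547. Leaving out WT-EtOH liver 3 also ended the call of Ces1d (adjusted p = 0.0549). The log2 FC stayed between 1.23 and 1.93 for Ces1d and between 1.38 and 2.13 for Ces1g in these fits. WT-con liver 1 was the highest of the 3 WT-con livers for 10 of the 10 members. Without it the log2 FC was 1.93 for Ces1d and 2.13 for Ces1g, and Ces2e passed both thresholds (log2 FC 0.70, adjusted p = 0.0290).

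Ces3a showed the opposite direction. It was at 2464, 2128 and 1904 CPM in WT-con livers and at 744, 642 and 996 CPM in WT-EtOH livers, which is a 2.71-fold lower level (log2 FC -1.44, SE 0.19, adjusted p = 0.00817). No ethanol liver reached the lowest control liver, and the call held when any 1 of the 6 livers was left out, with an adjusted p of at most 0.0357.

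The secreted Ces1c was at 2050.0, 1676 and 1757 CPM in WT-con livers and at 2844, 2619.6 and 2623 CPM in WT-EtOH livers. The groups did not overlap and the adjusted p was 0.0432, but the FC of 1.49 was just under the threshold. On library totals without TMM factors the log2 FC was 0.69 (adjusted p = 0.0187), and after quantile normalization of log2(FPKM + 1) it was 1.07 with limma (adjusted p = 0.0152), so that Ces1c passed there. Ces2e, a liver and gut esterase, was at 195, 127 and 139 CPM and at 209.9, 215 and 216 CPM, also without overlap (log2 FC 0.49, SE 0.17, adjusted p = 0.115). In all, 5 of 10 members did not overlap between the groups, against 32.9% of all genes.

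The remaining members overlapped between WT-EtOH and WT-con livers. The log2 FC was 0.54 for Ces1f (SE 0.22, adjusted p = 0.17), a further lipid hydrolase, and 0.60 for Ces2c (SE 0.25, adjusted p = 0.182). For Ces2a, which with Ces2c belongs to the group that hydrolyses prodrugs and acylglycerols, it was 0.11 with a 95% interval from -0.39 to 0.62. Ces1e encodes egasyn, the partner that keeps beta-glucuronidase in the endoplasmic reticulum. Its log2 FC was -0.14 with an interval from -0.61 to 0.32, and the sign turned without WT-con liver 1 (0.18).

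**Figure D2:**
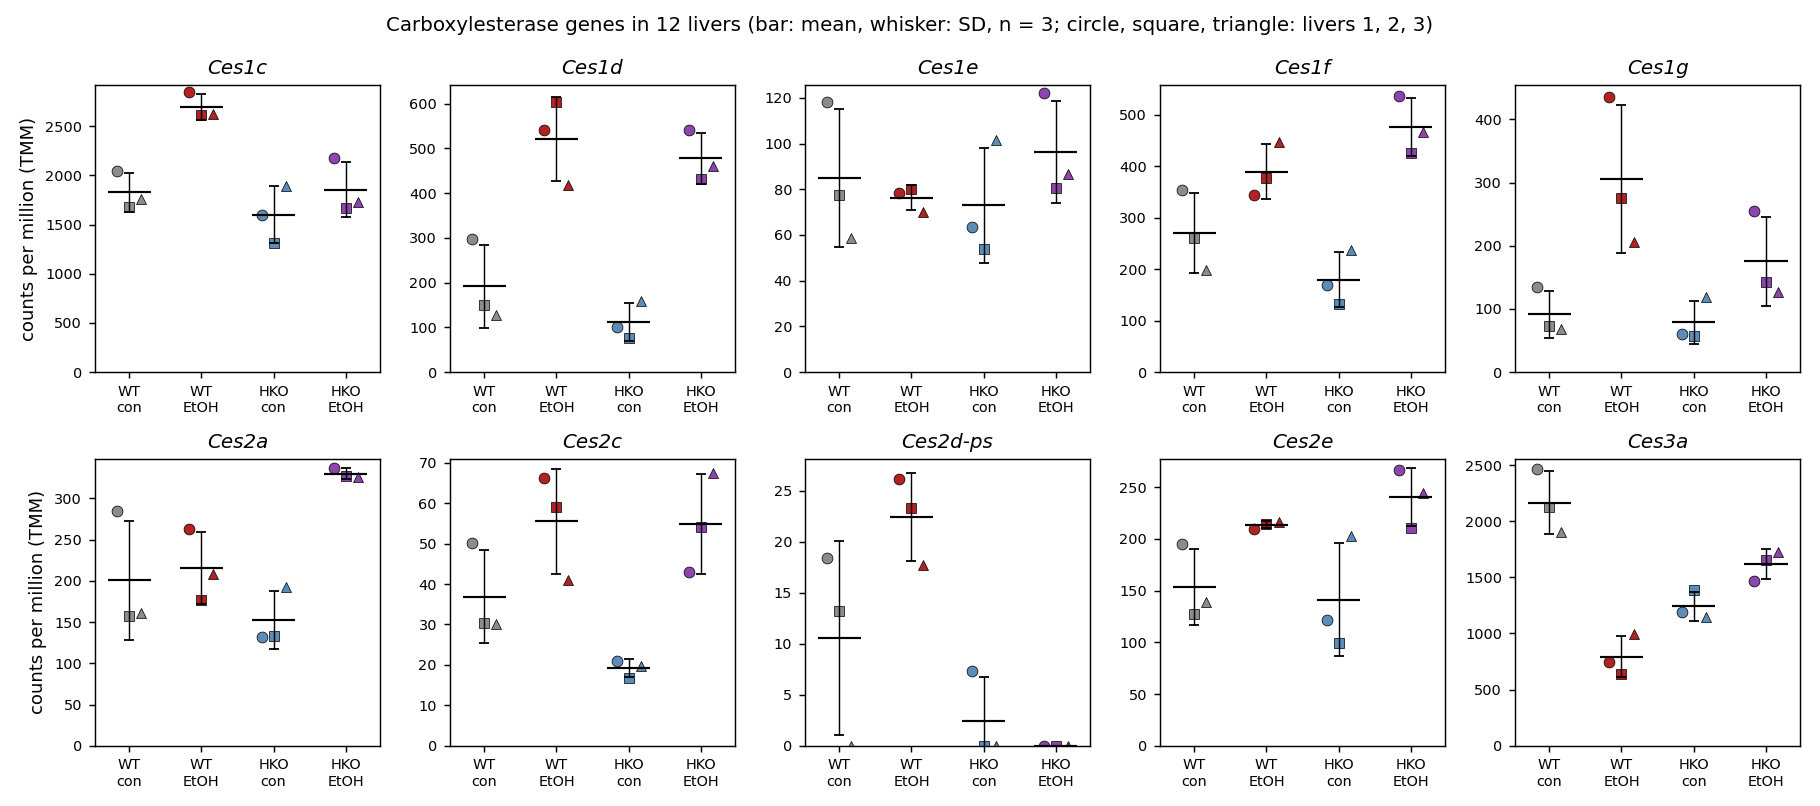
CPM with TMM factors (y axis, each panel from 0) of the 10 carboxylesterase genes in the 4 groups (x axis), with each liver as a symbol, the mean as a bar and the SD as a whisker (n = 3). Ces1d and Ces1g are higher and Ces3a is lower in the 3 WT-EtOH livers than in the 3 WT-con livers, and Ces2d-ps is at 0 in 6 of the 12 livers.

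In Ahr HKO mice ethanol raised carboxylesterase genes and lowered none past the thresholds. The comparison of Ahr HKO-EtOH with Ahr HKO-con livers addresses how alcohol acts when hepatocytes lack the receptor. Ces1d, Ces1f, Ces2a and Ces2c rose, so 4 of 10 members were called higher, against 10.3% of all genes called higher and 22.0% called in either direction. The median log2 FC was 0.94 over the members and -0.02 over all genes. The groups did not overlap for 7 of 10 members, all higher with ethanol, against 24.5% of all genes in that direction and 49.8% in either.

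Ces1d was at 101, 76.7 and 158 CPM in Ahr HKO-con livers and at 539.9, 432 and 459.9 CPM in Ahr HKO-EtOH livers, a 4.26-fold higher level (log2 FC 2.09, SE 0.27, adjusted p = 0.00328). Ces2c was at 21.1, 16.7 and 19.7 CPM and at 42.9, 54.2 and 67.5 CPM, a 2.86-fold higher level (log2 FC 1.52, SE 0.18, adjusted p = 0.00279). For both genes every ethanol liver was more than 2-fold above the mean of the control livers.

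Ces1f was at 168, 133 and 237 CPM in Ahr HKO-con livers and at 537, 425 and 467 CPM in Ahr HKO-EtOH livers (log2 FC 1.41, SE 0.23, adjusted p = 0.00595). Ces2a was at 132, 133 and 193 CPM and at 337, 328 and 325 CPM (log2 FC 1.11, SE 0.18, adjusted p = 0.00551). The 3 ethanol livers lay within an SD of 6.23 CPM for Ces2a. These 4 calls held without any 1 of the 6 livers, with adjusted p values of at most 0.0228.

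Ces1g (60.7, 56.3 and 119 CPM against 255, 143 and 127 CPM), Ces2e (121, 99.0 and 203 CPM against 266, 210.4 and 244 CPM) and Ces3a (1188, 1389 and 1144 CPM against 1472, 1655 and 1726 CPM) were also higher in every ethanol liver. Their log2 FCs were 1.15 (SE 0.37, adjusted p = 0.0531), 0.76 (SE 0.27, adjusted p = 0.0682) and 0.39 (SE 0.14, adjusted p = 0.0738). Ahr HKO-con liver 3 was the highest of its group for 7 of the 10 members. Without it 7 members were called higher, with Ces1g (log2 FC 1.59, adjusted p = 0.0172), Ces2e (log2 FC 1.13, adjusted p = 0.00687) and Ces1e (log2 FC 0.73, adjusted p = 0.0469) added. Ces1c, at 1594, 1316 and 1897 CPM against 2177, 1664 and 1728 CPM, overlapped (log2 FC 0.21, 95% interval -0.17 to 0.59).

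Other cell types moved in the same comparison. All 6 Kupffer cell markers fell with ethanol in Ahr HKO livers, and their summed level was 257 to 753 CPM in Ahr HKO-con and 155 to 196 CPM in Ahr HKO-EtOH livers. Of the 6 leukocyte markers 3 fell, with a summed level of 17.6 to 30.9 CPM against 7.74 to 9.51 CPM. Of the 6 hepatocyte markers 1 rose (Ttr), and their summed level was 71559 to 114107 CPM against 103721 to 111343 CPM. Of the 6 sinusoidal endothelial markers 2 fell, with a summed level of 242 to 266 CPM against 168 to 187 CPM. Over all genes 22.0% were called in either direction, so the hepatocyte and endothelial counts were not far from that share. Ahr HKO-con liver 3, high for most members, also had the highest hepatocyte sum (114107 CPM) and the lowest Kupffer cell sum (257 CPM) of its group. Every one of these markers had counts in each group, and their part in the carboxylesterase values was not tested.

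Markers also moved in the other comparisons, and their part there was not tested either. With ethanol in WT livers the sum of the 3 erythroid markers was 325 to 489 CPM in WT-con and 108 to 215 CPM in WT-EtOH livers, and Alas2, the erythroid enzyme of heme synthesis, fell (log2 FC -1.90). The stellate cell sum was 208 to 286 CPM against 301 to 344 CPM, and Lrat rose (1.03). These 2 sums did not overlap between the diets. The neutrophil genes S100a8 and S100a9 rose (1.38 and 1.68), as did hepatocyte Tat (1.25), while Apoa1 fell (-1.08). Over the 6 leukocyte markers the log2 FC was positive for 3 and negative for 3, and 2 were called, against 6.76% of all genes. The Kupffer cell sum overlapped, at 288 to 377 CPM against 255 to 675 CPM. On the control diet the leukocyte sum was 12.2 to 14.5 CPM in WT-con and 17.6 to 30.9 CPM in Ahr HKO-con livers, without overlap, and S100a8 and S100a9 were higher in Ahr HKO (1.68 and 2.07). The list was mixed, with 2 of 6 leukocyte markers called higher and 1 called lower, against 19.9% of all genes called in either direction. Epcam, an epithelial marker of bile ducts, was also higher (2.28), with a cholangiocyte sum of 40.3 to 132 CPM against 44.5 to 476 CPM. Tat (1.72) and Pecam1 (0.64) were higher and Col3a1 (-1.26) and Alas2 (-0.68) lower in Ahr HKO-con livers. On the ethanol diet 5 of 6 Kupffer cell and 5 of 6 leukocyte markers were lower in every Ahr HKO liver, though none was called. Of the 6 hepatocyte markers 5 were higher without overlap, against 27.9% of all genes not overlapping in either direction. The Kupffer cell sum was 255 to 675 CPM in WT-EtOH and 155 to 196 CPM in Ahr HKO-EtOH livers, and the leukocyte sum 12.1 to 20.9 CPM against 7.74 to 9.51 CPM. Tat (1.63) and Alas2 (1.65) were called higher. For the interaction, 4 of 6 Kupffer cell and 3 of 6 leukocyte markers passed, all with a negative sign, against 22.3% of all genes passing in either direction.

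**Figure D3:**
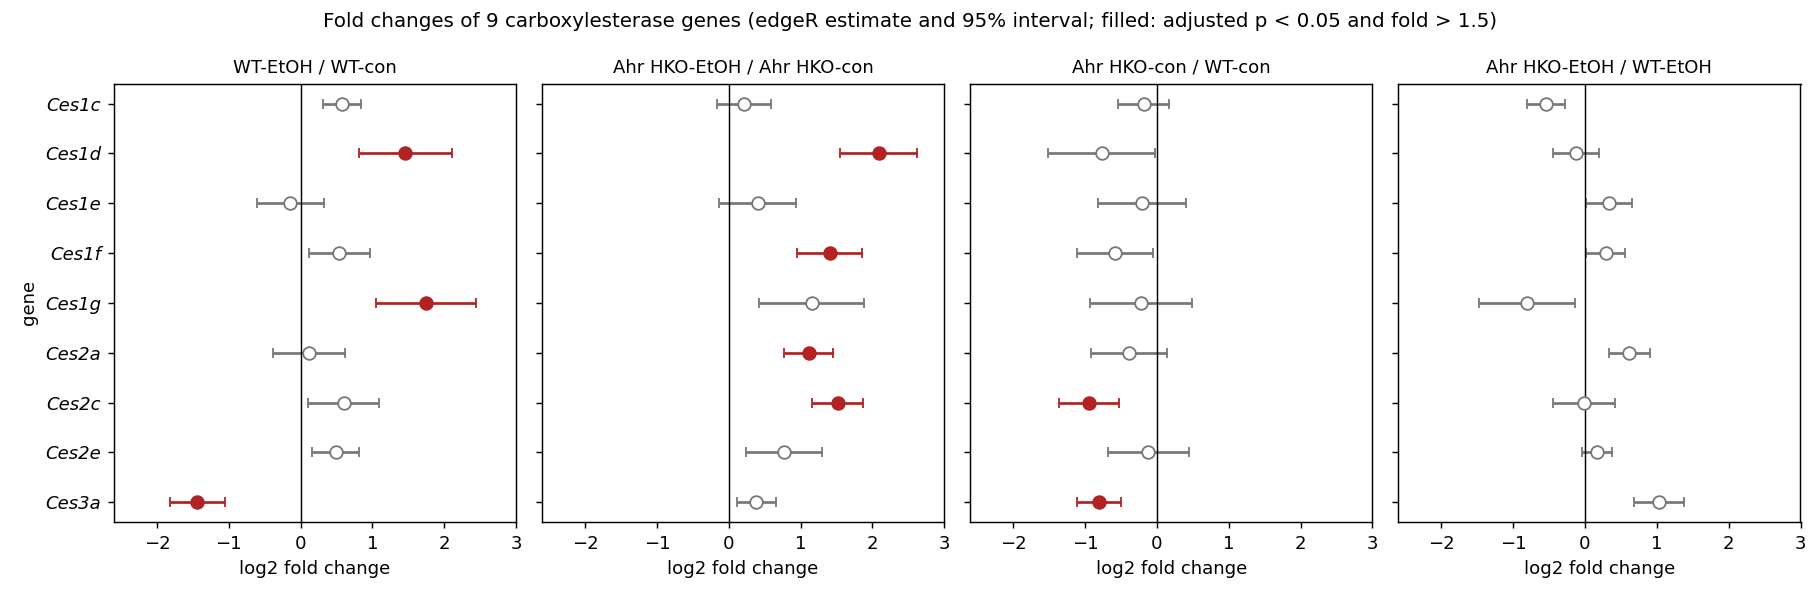
Log2 FC (x axis) of 9 carboxylesterase genes (y axis) in the 4 comparisons of groups, as the edgeR estimate with its 95% interval, filled where adjusted p was under 0.05 and FC above 1.5. Ces1d is filled for ethanol in both genotypes, and Ces3a is filled below 0 for ethanol in WT and for Ahr HKO on the control diet. The intervals are normal limits from the SE, narrower than the test allows, so some leave out 0 where it did not pass. Ces2d-ps is left out because groups hold livers with 0 counts.

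On the control diet, carboxylesterase genes were lower in Ahr HKO than in WT livers where they differed. This comparison addresses the role of the receptor without alcohol, and it shares its control livers with those above. Ces2c and Ces3a were called lower, that is 2 of 10 members, against 10.1% of all genes called lower and 19.9% called in either direction. The log2 FC was negative for 10 of 10 members, with a median of -0.49 against 0.00 over all genes, but for 8 of them the groups overlapped and the test was not passed.

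Ces3a was at 1904 to 2464 CPM in WT-con and at 1144 to 1389 CPM in Ahr HKO-con livers, a 1.74-fold lower level (log2 FC -0.80, SE 0.16, adjusted p = 0.00949). Ces2c was at 30.0 to 50.1 CPM and at 16.7 to 21.1 CPM, 1.92-fold lower (log2 FC -0.94, SE 0.21, adjusted p = 0.0160). These 2 were also the only members whose groups did not overlap, that is 2 of 10, below the 47.3% of all genes. The share of members called was close to the 19.9% of all genes. The call of Ces2c ended without Ahr HKO-con liver 2 (log2 FC -0.85, adjusted p = 0.0502). For Ces1d, with values from 76.7 to 158 CPM in Ahr HKO-con livers against 127 to 298 CPM, the log2 FC was -0.77 (SE 0.38, adjusted p = 0.165). For Ces1f it was -0.59 (SE 0.27, adjusted p = 0.144).

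The signs of 3 members that did not pass turned without WT-con liver 1, the liver that was highest for every member. The log2 FC then was 0.10 for Ces1e, 0.16 for Ces1g and 0.09 for Ces2e, compared with -0.21, -0.22 and -0.12 with all 6 livers. Without Ahr HKO-con liver 2 Ces2e also turned, to 0.09.

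On the ethanol diet Ces3a and Ces2a were higher and Ces1c was lower in every Ahr HKO liver than in any WT liver, but none of the 3 passed the test. The only member past the thresholds was Ces2d-ps, against 1.06% of all genes called in either direction and 0.378% called lower. It had counts in WT-EtOH livers alone, so it was tested only through the group where it was high, and nothing is read from its call. The other 9 members had an adjusted p of 0.0520 or more by edgeR. Ces3a was at 744, 642 and 996 CPM in WT-EtOH and at 1472, 1655 and 1726 CPM in Ahr HKO-EtOH livers. That is a 2.04-fold higher level without overlap, and the adjusted p of 0.0520 was just outside the threshold. Without WT-EtOH liver 3 Ces3a was called (log2 FC 1.22, adjusted p = 0.0264), and with all 12 livers in a single fit the adjusted p was 0.0132.

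Ces2a was at 263, 176 and 208 CPM in WT-EtOH and at 337, 328 and 325 CPM in Ahr HKO-EtOH livers, without overlap (log2 FC 0.62, SE 0.15, adjusted p = 0.0899). Ces1c was lower in each of the Ahr HKO-EtOH livers, at 2177, 1664 and 1728 CPM against 2844, 2619.6 and 2623 CPM (log2 FC -0.54, SE 0.14, adjusted p = 0.101). On library totals without TMM factors Ces1c passed (log2 FC -0.73, adjusted p = 0.0497). Over the 10 members 5 did not overlap, against 27.9% of all genes, and the 5 include Ces2d-ps, from which nothing is read. They also include Ces1e, at 70.2 to 80.2 CPM in WT-EtOH and 80.7 to 122 CPM in Ahr HKO-EtOH livers (log2 FC 0.34, SE 0.16, adjusted p = 0.284). Ces1f overlapped (log2 FC 0.29, SE 0.14, adjusted p = 0.281). For Ces1d the log2 FC was -0.13 (95% interval -0.45 to 0.19), for Ces2c -0.02 (-0.45 to 0.42) and for Ces2e 0.17 (-0.04 to 0.38). For Ces1g, with wide values in both groups, it was -0.80 (-1.47 to -0.13, adjusted p = 0.238). That interval leaves out 0 although the unadjusted edgeR p was 0.0501, because the intervals are normal limits from the SE.

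The difference between the ethanol effects of the genotypes was tested directly with the interaction term over all 12 livers. Of the 10 members 1 passed, Ces3a, against 22.3% of all genes. The ethanol effect on Ces3a was 1.83 higher on the log2 scale in Ahr HKO than in WT livers (SE 0.24, adjusted p = 0.000867). It passed without any 1 of the 12 livers, with an adjusted p of at most 0.00339.

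The interaction was 1.01 for Ces2a (SE 0.34, adjusted p = 0.0518), 0.93 for Ces2c (SE 0.34, adjusted p = 0.0697) and 0.88 for Ces1f (SE 0.33, adjusted p = 0.0780). Ces2a passed without WT-con liver 2 (adjusted p = 0.0438), WT-con liver 3 (0.0462), WT-EtOH liver 1 (0.0372) or Ahr HKO-con liver 3 (0.0288), and Ces1f without WT-con liver 3 (0.0427) or Ahr HKO-con liver 3 (0.0268). For Ces1d, called higher with ethanol in both genotypes, the interaction was 0.65 (95% interval -0.24 to 1.54). For Ces1g, called in WT alone, it was -0.58 (-1.67 to 0.52), so a difference between the genotypes was not shown for either gene.

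Ces3b, next to Ces3a and nearly identical to it, had the same directions as Ces3a. It was at 581, 802 and 693 CPM in WT-con and at 66.4, 92.5 and 152 CPM in WT-EtOH livers, 6.61-fold lower (log2 FC -2.72, SE 0.31, adjusted p = 0.00499). In Ahr HKO-con livers it was at 242, 392 and 298 CPM, lower than in WT-con (log2 FC -1.15, SE 0.21, adjusted p = 0.00709), and in Ahr HKO-EtOH livers it was at 364, 344 and 405 CPM, 3.58-fold above WT-EtOH (adjusted p = 0.0429). With ethanol in Ahr HKO livers the Ces3b groups overlapped and the test was not passed (log2 FC 0.26, SE 0.18, adjusted p = 0.309). The interaction for Ces3b was 2.99 (SE 0.39, adjusted p = 0.000772).

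Because Ces3a and Ces3b share windows of read length, their sum is given as well. It was 2857 ± 233 CPM in WT-con, 898 ± 220 CPM in WT-EtOH, 1551 ± 199 CPM in Ahr HKO-con and 1989 ± 148 CPM in Ahr HKO-EtOH livers. The sum was thus 3.18-fold lower with ethanol in WT and 1.28 ± 0.19 times its control level in Ahr HKO livers. Ces3b contributed 19.1% to 27.4% of the counts of the pair in WT-con livers and 8.20% to 13.3% in WT-EtOH livers.

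**Figure D4:**
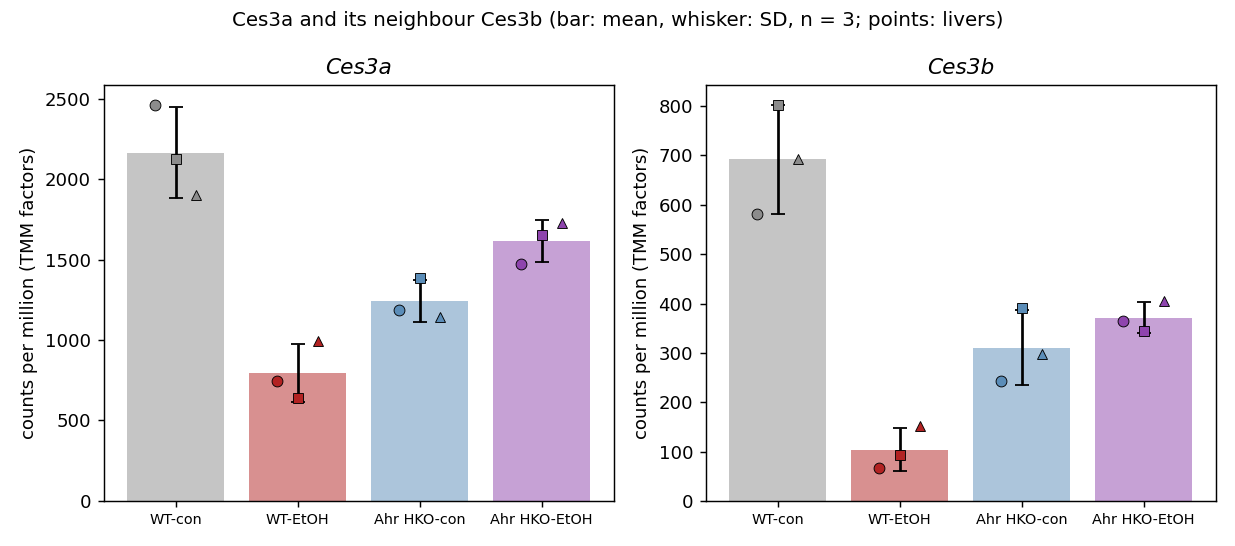
CPM with TMM factors (y axis) of Ces3a and Ces3b in the 4 groups (x axis), with the mean as a bar, the SD as a whisker (n = 3) and each liver as a point. In WT-EtOH both genes lie below all other groups, with Ces3a at 642 to 996 CPM and Ces3b at 66.4 to 152 CPM.

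Ces2d-ps behaved as present or absent. It had 846, 740 and 0 counts in WT-con livers 1, 2 and 3, 1387, 1470 and 1114 counts in WT-EtOH livers, 451, 0 and 0 counts in Ahr HKO-con livers and 0 counts in all 3 Ahr HKO-EtOH livers. In the 6 livers with counts, Ces2d-ps made up 25.9% to 30.3% of the counts of Ces2c and Ces2d-ps together, a narrow range across 3 groups. No fold is given against the Ahr HKO-EtOH livers, where the gene is listed at 0. The genotype test on the ethanol diet gave an edgeR adjusted p of 0.00230 from the 6 livers on that diet and 0.0763 with all 12 livers in a single fit.

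The other comparisons of Ces2d-ps mixed livers with and without counts, so their means describe no single liver. No other gene had at least 50 counts in each of the 6 livers with Ces2d-ps counts and 0 in the 6 livers without them. A 0 here is a listed value, and whether the transcript was absent was not tested. Of the 100-base windows of Ces2d-ps 57.0% occur in another gene, and how such reads were assigned is not given. The sum of Ces2c and Ces2d-ps was 47.4 ± 19.6 CPM in WT-con, 77.9 ± 17.2 CPM in WT-EtOH, 21.6 ± 6.12 CPM in Ahr HKO-con and 54.8 ± 12.3 CPM in Ahr HKO-EtOH livers. By the sum, ethanol gave a 1.64 ± 0.77-fold level in WT and a 2.54 ± 0.92-fold level in Ahr HKO livers. The sum does not cover Gm8798, with which Ces2d-ps shared the most windows.

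**Figure D5:**
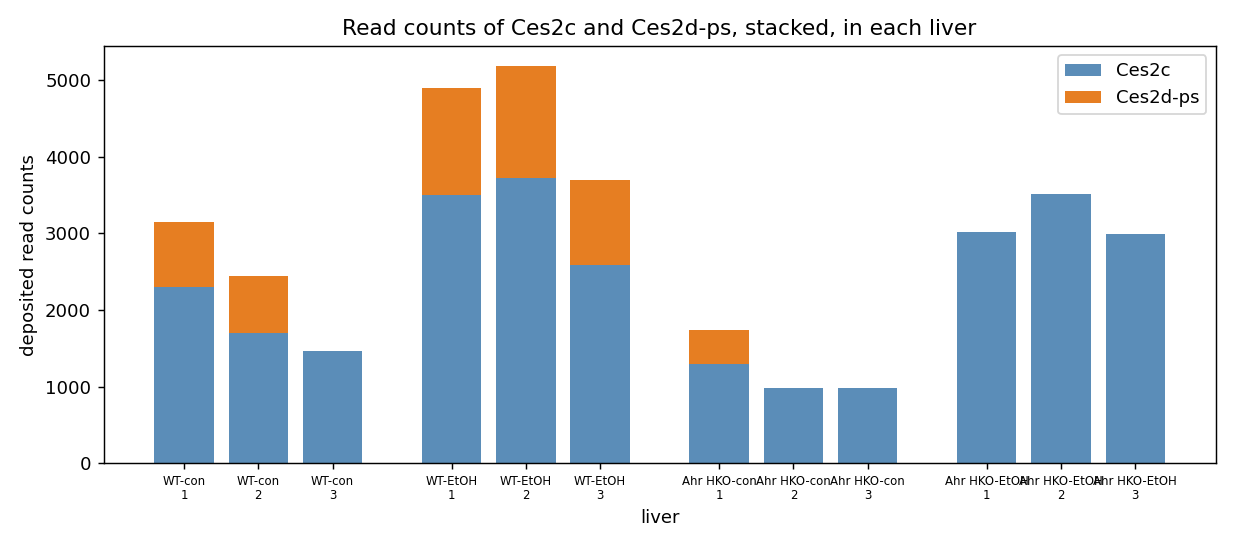
Deposited read counts (y axis) of Ces2c and Ces2d-ps, stacked, in each of the 12 livers (x axis, by group and liver number). Ces2d-ps adds 451 to 1470 counts in 6 livers and 0 in the other 6, while Ces2c has 977 or more counts in every liver.

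Summed over subfamilies, the Ces1 members were at 2466 ± 422 CPM in WT-con and 3987 ± 241 CPM in WT-EtOH livers, and at 2045 ± 441 CPM in Ahr HKO-con and 3081 ± 480.4 CPM in Ahr HKO-EtOH livers. The ethanol level was 1.62 ± 0.29 times the control level in WT and 1.51 ± 0.40 times in Ahr HKO livers, the error being propagated from the SDs. The Ces2 members were at 402 ± 127 CPM and 507 ± 50.4 CPM in WT, a ratio of 1.26 ± 0.42, and at 315 ± 88.5 CPM and 625 ± 29.0 CPM in Ahr HKO, a ratio of 1.98 ± 0.56. All 10 together were at 5033 ± 817 CPM in WT-con and 5288 ± 243 CPM in WT-EtOH livers, a ratio of 1.05 ± 0.18. In Ahr HKO livers the total was 3600.5 ± 418 CPM without and 5324 ± 387 CPM with ethanol.

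The other carboxylesterase genes were mostly scarce in liver. Of 10 such genes 9 were in the table and 6 were tested. Ces2b, at 2.06 to 3.14 CPM in WT-con, was at 0.427 to 0.523 CPM in Ahr HKO-con livers (log2 FC -2.39, SE 0.27, adjusted p = 0.00162) and at 1.28 to 4.01 CPM in Ahr HKO-EtOH livers (log2 FC 2.31 against Ahr HKO-con, SE 0.45, adjusted p = 0.0105). Ces4a had 153 to 330 counts in WT-con and 0 to 21 counts in WT-EtOH livers, so its fold is uncertain (log2 FC -5.03, SE 0.80, adjusted p = 0.0141). The interaction passed for 3 of the 6, against 22.3% of all genes, namely Ces3b, Ces2b (2.94, adjusted p = 0.00446) and Ces4a (4.36, adjusted p = 0.0214), with a positive sign in each.

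A list of 29 other esterases and neutral lipid hydrolases had 27 tested members. With ethanol in WT livers 3 rose and 1 fell, against 6.76% of all genes called. Abhd6, a monoacylglycerol lipase, rose (log2 FC 0.81, SE 0.14, adjusted p = 0.0186), as did Bche, which encodes butyrylcholinesterase of plasma (0.85, SE 0.15, adjusted p = 0.0182), while Lipe, which encodes hormone-sensitive lipase, fell (-0.99, SE 0.16, adjusted p = 0.0136). With ethanol in Ahr HKO livers 8 rose and 2 fell, against 22.0% of all genes called, among them Afmid, the formamidase of the kynurenine pathway (1.52, SE 0.22, adjusted p = 0.00414), and Abhd6 (1.34, SE 0.14, adjusted p = 0.00182). On the control diet 4 were lower in Ahr HKO and 0 higher, against 10.1% of all genes called lower and 19.9% called in either direction. These were Siae, Lipe, Afmid and Faah, with log2 FCs from -0.96 to -0.67. The median log2 FC of the list was 0.45 for ethanol in Ahr HKO and 0.14 in WT livers. The interaction passed for 5 of the 27, a smaller share than the 22.3% of all genes.

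Of 18 regulators of carboxylesterase genes, nuclear receptors and other transcription factors, 2 rose with ethanol in WT livers, against 6.76% of all genes called in either direction. Nr1i3, which encodes the drug-sensing receptor CAR, was at 84.9 to 103 CPM in WT-con and at 149 to 159 CPM in WT-EtOH livers (log2 FC 0.74, SE 0.10, adjusted p = 0.00802). Nfe2l2, which encodes NRF2, also rose (0.66, SE 0.13, adjusted p = 0.0245). With ethanol in Ahr HKO livers 2 rose and 3 fell, against 22.0% of all genes called. Nr0b2, which encodes the corepressor SHP, rose (1.33, SE 0.32, adjusted p = 0.0214), as did Nr1i3 (1.03, SE 0.20, adjusted p = 0.0108). Ahr, Trp53 and Nr1h4, the bile acid receptor gene, fell, with log2 FCs of -0.79, -0.73 and -0.61. On the control diet Ahr (1.63) and Hnf4a (0.97), a master regulator of hepatocyte genes, were higher and Nr1i3 (-0.63, SE 0.20, adjusted p = 0.0473) was lower in Ahr HKO than in WT livers, against 19.9% of all genes called. On the ethanol diet the repressor gene Bcl6 was higher in Ahr HKO livers (3.22, SE 0.21, adjusted p = 0.00312). The interaction passed for 3 of 18, Bcl6 (3.20), Ahr (-1.23) and Trp53 (-0.66), against 22.3% of all genes. Markers of CAR and NRF2 activity rose with ethanol in both genotypes. Cyp2b10 was at 0 to 0.262 CPM in WT-con and at 46.8 to 408 CPM in WT-EtOH livers. Nqo1 was at 1.79 to 3.41 CPM in WT-con and at 18.2 to 28.2 CPM in WT-EtOH livers (log2 FC 3.23, SE 0.28, adjusted p = 0.00203).

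Of 4 partners and retrieval receptors of the endoplasmic reticulum 1 was called between genotypes on the control diet, against 19.9% of all genes. It was Kdelr2, a receptor that returns escaped lumenal proteins. Its level was 62.4 to 71.1 CPM in WT-con and 127 to 138 CPM in Ahr HKO-con livers (log2 FC 1.01, SE 0.10, adjusted p = 0.00108). Kdelr2 fell with ethanol in Ahr HKO livers (-0.71, SE 0.14, adjusted p = 0.0108), again 1 of 4, against 22.0% of all genes. Gusb, Kdelr1 and Kdelr3 were not called in any comparison.

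The promoters of the Ces2 members are shown because 3 of these neighbouring genes were higher in every ethanol liver of Ahr HKO mice. The lines give the 150 bases before the annotated start (RefSeq, GRCm38.p6, plus strand), with GAACTTT, the rarest of 3 runs of 7 bases that these promoters share, in capitals.
Ces2a (chr8:104733853-104734002): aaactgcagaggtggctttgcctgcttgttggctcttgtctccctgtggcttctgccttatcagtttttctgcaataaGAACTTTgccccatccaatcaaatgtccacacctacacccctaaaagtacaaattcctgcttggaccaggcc
Ces2c (chr8:104846918-104847067): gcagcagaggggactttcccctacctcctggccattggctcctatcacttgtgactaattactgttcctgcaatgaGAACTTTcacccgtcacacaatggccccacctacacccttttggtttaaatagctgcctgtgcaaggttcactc
Ces2e (chr8:104926110-104926259): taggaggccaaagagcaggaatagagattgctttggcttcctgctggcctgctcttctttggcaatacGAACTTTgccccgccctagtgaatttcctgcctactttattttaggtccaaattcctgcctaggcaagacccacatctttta
The run begins 72, 74 and 82 bases before the start and occurs, on either strand, in 3.82% of 27025 promoters of 300 bases (250 before to 50 after the start). The other shared runs, GAGGCCA and TTCCTGC, occur in 7.59% and 8.88% of them. Of the 10 members 6 had a promoter in that table, and Ces1d, Ces1f, Ces2d-ps and Ces3a did not. The core of the aryl hydrocarbon receptor motif, GCGTG, was searched on both strands and was in 0 of these 6 promoters and in 32.5% of all promoters. The core TGACNNNGC of the antioxidant response element was in 0 of the 6 and in 12.5% of all. The nuclear receptor half-site AGGTCA was in Ces2a alone and in 16.0% of all promoters. A match is a description of letters, and a missing match says only that they are not in this window.

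Genes next to the runs were examined to see whether the changes extended along the chromosome. Of the 5 nearest genes on each side of each run 15 were tested in all. With ethanol in WT livers the lowest adjusted p among them was 0.113. With ethanol in Ahr HKO livers 3 of 15 fell, Lpcat2, Nudt21 and Cbfb, named after their values were seen, with log2 FCs of -1.50, -0.60 and -0.91, against 22.0% of all genes called in either direction. The called members rose in that comparison. On the control diet 3 of 15 were lower in Ahr HKO and 0 higher. Of all genes 10.1% were called lower and 19.9% in either direction, and the count was close to the latter share. These were Car7, Tradd and Fbxl8 (-1.44, -0.66 and -0.78), named after their values were seen. All lie beside the run of Ces2c and Ces3a, which were also lower, and a shared change along the chromosome was not tested.

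By likeness of log2 CPM over the 12 livers, which fall into 4 groups of 3 and share their diets and genotypes, the genes outside the family most like Ces3a were Aox3, Ttc39c and Cyp2u1, with Pearson r of 0.97, 0.97 and 0.96. For Ces1d they were Akr1c19, Gsta3 and Ugt2b36 (0.97 each), and for Ces1g Vnn3, Ugt1a1 and Agmo (0.98, 0.97 and 0.97). These values are descriptions among 11711 genes compared.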

How the data were processed

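Polyadenylated RNA of 12 mouse livers, each from a separate mouse, was sequenced from both ends (100 bases). The authors deposited a read count, an FPKM value and a TPM value per gene and liver. Counts carry no normalization, FPKM is scaled by the authors for gene length and library size, and TPM sums ranged from 924962 to 987569. The submitters' processing notes name FastQC 0.11.7, Trimmomatic 0.38, HISAT2 2.1.0, Bowtie2 2.3.4.1 and StringTie 1.3.4d with mm10. Their settings, and the handling of reads that fit several genes, are not given in the sources used here, so reads may move between near-identical copies. No 2 libraries were identical (66 pairs compared). Deviations of same-numbered livers from their group means correlated weakly at most (-0.0884 to 0.178).

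Counts were tested with edgeR 4.0.16 (R 4.3.3, TMM factors, quasi-likelihood) on genes kept by filterByExpr, each pair of groups on its own 6 livers and the interaction on all 12. Adjusted p is by Benjamini-Hochberg over 14038 genes, and SE is the log2 FC divided by the root of F. The intervals of log2 FC are normal limits from this SE, narrower than the test allows. DESeq2 1.42.0, limma 3.58.1 on log2(FPKM + 1) or log2(FPKM + 0.1), other scalings, filters, a replicate block and each liver left out were alternatives. The fitting script was tested on simulated counts. The 10 members, the lists and the tests were chosen with earlier results of these data known. Every member is named, and from other lists at most 5 called genes per comparison with a mean count of at least 50, by size of log2 FC. Sequence windows and identities came from GENCODE transcripts of GRCm38.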

Additional observations from a re-analysis of the deposited data

Results flagged for a closer look

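The ethanol effect on Ces3a differed between the genotypes by the interaction test over the 12 livers. It was -1.44 on the log2 scale in WT (lower in 3 of 3 ethanol livers than in any control liver) and 0.39 in Ahr HKO livers (higher in 3 of 3), a difference of 1.83 (SE 0.24, edgeR adjusted p = 0.000867). Over the 9 other fits of all livers the difference was 1.60 to 1.85.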

How the results depend on the processing

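Of the 10 members 3, 4, 2 and 1 were called for ethanol in WT, ethanol in Ahr HKO, and genotype on the control and on the ethanol diet, and 1 interaction passed. With limma on log2(FPKM + 1) or log2(FPKM + 0.1) 5 were called for ethanol in WT. On the ethanol diet 3 were called with DESeq2, 2 with library totals, 0 with at least 10 counts in every liver (where Ces2d-ps is not tested), 2 with quantile-normalized FPKM, 2 with log2(FPKM + 1) and 3 with log2(FPKM + 0.1). For the interaction 5 passed with DESeq2, and 2 with upper-quartile factors, at least 10 counts or quantile-normalized FPKM. Leaving out each liver gave 1 to 4, 4 to 7, 1 to 2, 1 to 2 and 1 to 3 members. Ces2d-ps had no value with at least 10 counts in every liver, nor for ethanol in Ahr HKO without Ahr HKO-con liver 1.

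Deviations of same-numbered livers from their group means correlated weakly (-0.0884 to 0.178). The highest values were for livers 1 and 2 between genotypes on the ethanol diet (0.178 and 0.133), which matched their own number best. Other pairings were not tested. With replicate number as a block, 3 members were called on the ethanol diet, and 503 of all genes for ethanol in WT and 243 on the ethanol diet, against 949 and 149 without the block.

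Over all genes, DESeq2 called 1440 for ethanol in WT. Quantile-normalized FPKM and log2(FPKM + 1) called 1795 and 1903 for ethanol in Ahr HKO (3090 by edgeR) and 1787 and 1751 on the control diet (2788 by edgeR). On the ethanol diet the count was 1044 with DESeq2, 287 with library totals, 83 with quantile-normalized FPKM, 238 with log2(FPKM + 1), 392 with log2(FPKM + 0.1) and 429 with all 12 livers in a single fit. Leaving out each liver gave 366 to 841 for ethanol in WT and 7 to 189 on the ethanol diet.

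Scaling moved the median log2 FC of all genes from 0.03 to 0.15 (library totals) and 0.16 (log2(FPKM + 0.1)) for ethanol in WT, and from -0.01 to -0.20 and -0.21 on the ethanol diet. The split of higher and lower calls for ethanol in WT went from 472 and 477 to 754 and 331 with library totals, and on the ethanol diet from 96 and 53 to 69 and 218. The interaction split went from 1576 and 1561 to 906 and 2518. The summed Ces2 level on the ethanol diet (Ahr HKO over WT, 1.23) was 1.08 with library totals and 1.06 from FPKM, and that of all 10 members (1.01) was 0.880 and 0.855.

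Signs turned for estimates that passed no test. For ethanol in WT, Ces1e (log2 FC -0.14) became 0.070 and 0.073 with log2(FPKM + 1) and log2(FPKM + 0.1), and ranged from -0.35 to 0.18 over the left-out livers, above 0 without WT-con liver 1. Ces2a (0.11) ranged from -0.070 to 0.45, with -0.04 and -0.03 without WT-con livers 2 and 3 and the lowest value without WT-EtOH liver 1. On the control diet the left-out ranges were -0.53 to 0.10 for Ces1e, -0.65 to 0.16 for Ces1g and -0.48 to 0.086 for Ces2e, each highest without WT-con liver 1, and Ces2e was 0.085 without Ahr HKO-con liver 2. On the ethanol diet they were -0.27 to 0.018 for Ces1d (highest without WT-EtOH liver 2) and -0.19 to 0.14 for Ces2c, which was above 0 without WT-EtOH liver 1, WT-EtOH liver 2 or Ahr HKO-EtOH liver 1. Ces2e (0.17) became -0.028 with library totals, -0.054 with log2(FPKM + 1) and -0.055 with log2(FPKM + 0.1). The cause was not tested.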

Other observations

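Ces1b, the neighbour of Ces1c, was examined after its values were seen. It was at 62.3, 42.9 and 58.0 CPM in WT-con livers, at 63.4, 56.1 and 39.6 CPM in WT-EtOH livers, at 32.4, 148 and 222 CPM in Ahr HKO-con livers and at 52.3, 285 and 264 CPM in Ahr HKO-EtOH livers. In both Ahr HKO groups livers 2 and 3 were above every WT liver, and liver 1 lay within or below the WT range. Of the counts of Ces1c and Ces1b together, Ces1b gave 1.49% to 3.19% in the 6 WT livers and in liver 1 of each Ahr HKO group, and 10.1% to 14.6% in the other 4 Ahr HKO livers.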
